A study of Mus musculus with 9 samples.

Results

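The CXC chemokines are small secreted proteins, and Cxcl16 a membrane-bound one, that direct the migration of leukocytes. The 10 genes described here, Cxcl1, Cxcl2, Cxcl5, Cxcl9, Cxcl10, Cxcl12, Cxcl14, Cxcl15, Cxcl16 and Cxcl17, were picked by name from an expression table of 18423 genes, with the levels in these 9 libraries already known. Their levels and calls are therefore a description, and no test below is independent evidence that the family moved. The libraries were made from poly(A) RNA of mouse stomach corpus glands, from the acid-secreting part of the stomach, taken where tumours lay or, in normal stomachs, from the matching region. The 3 Arid1a_Het libraries came from Atp4bCre; Rosa26NICD; Arid1aflox/+ mice, the 3 Ctrl libraries from Atp4bCre; Rosa26NICD mice and the 3 WT libraries from wild-type mice. Arid1a_Het and Ctrl therefore share the Cre and the NICD alleles and differ in the loxP-flanked Arid1a allele. Atp4b encodes a subunit of the parietal cell proton pump, NICD is the intracellular domain that active Notch receptors release, and Arid1a encodes a subunit of the BAF chromatin remodelling complex. Cre driven by Atp4b is expressed in the parietal cell lineage, while the libraries hold all cells of the scraped glands. The labels used here give no strain, age or sex, and do not say whether libraries of a genotype are separate animals, so p-values here reflect how much these libraries spread, which may be technical.

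In mice the chemokines that carry an ELR motif, among them Cxcl1, Cxcl2, Cxcl3 and Cxcl5, bind the receptor Cxcr2 and attract neutrophils, and cytokines such as IL-1, TNF and IL-17 induce them through NF-kB. Cxcl9 and Cxcl10 are induced by interferon-gamma and bind Cxcr3 on T and NK cells. Cxcl12 is the ligand of Cxcr4 and of the scavenger receptor Ackr3, Cxcl16 binds Cxcr6, and Cxcl14 and Cxcl17 are made by epithelia, Cxcl17 mostly at mucosal surfaces.

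The ELR ligands lie together on chromosome 5. Promoters are shown for Cxcl1, Cxcl2 and Cxcl3, which rose in the same comparison, as given below. The GENCODE annotation of GRCm38 places Cxcl5, Ppbp, Pf4, Cxcl3, Cxcl15, Cxcl1 and Cxcl2, in this order and all on the plus strand, within the 146.6 kb of chr5:90759360-90905938. The lines give the 250 bases before the start of each gene, plus strand, from RefSeq on GRCm38.p6, with matches to the kappaB motif, the binding motif of NF-kB, in capitals.
Cxcl1, chr5:90890995-90891244: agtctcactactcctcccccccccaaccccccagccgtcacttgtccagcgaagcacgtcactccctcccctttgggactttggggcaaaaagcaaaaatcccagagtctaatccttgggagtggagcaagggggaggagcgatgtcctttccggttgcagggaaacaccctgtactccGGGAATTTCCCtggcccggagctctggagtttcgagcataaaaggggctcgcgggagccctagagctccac
Cxcl2, chr5:90903649-90903898: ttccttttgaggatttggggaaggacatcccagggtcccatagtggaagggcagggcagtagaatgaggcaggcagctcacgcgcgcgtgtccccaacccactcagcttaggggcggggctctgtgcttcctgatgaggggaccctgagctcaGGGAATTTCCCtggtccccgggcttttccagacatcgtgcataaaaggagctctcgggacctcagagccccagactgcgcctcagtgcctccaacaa
Cxcl3, chr5:90785851-90786100: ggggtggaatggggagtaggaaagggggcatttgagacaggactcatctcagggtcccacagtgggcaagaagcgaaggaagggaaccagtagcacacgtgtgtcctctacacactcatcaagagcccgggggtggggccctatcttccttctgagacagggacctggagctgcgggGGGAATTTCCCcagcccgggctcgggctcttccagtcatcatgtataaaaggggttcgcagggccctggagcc
The 3 promoters hold the same run of letters, which reads as a kappaB match on each strand, starting 71 bases upstream of the start in Cxcl1, 97 bases in Cxcl2 and 73 bases in Cxcl3. Promoter windows from 250 bases before to 50 bases after the start were searched on both strands for 3 motifs in the 7 members that matched the RefSeq table. The kappaB motif was also in the window of Cxcl10, the interferon-response motif TTCNNNGAA in that of Cxcl14, and TGGGAA, the motif of the Notch partner RBPJ, in that of Cxcl12. Cxcl9 and Cxcl15 held no match to these letters, and Cxcl5, Cxcl16 and Cxcl17 were not matched. Of all 32851 windows of this length, 4.50% held the kappaB motif, 8.30% TTCNNNGAA and 25.6% TGGGAA. A match describes the letters and is not a measured binding site, and a part of NF-kB in the levels was not tested.

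The libraries held 22651385 to 29478481 reads. Arid1a, read as a check of the labels, had 8.94, 5.90 and 6.96 FPKM in the Arid1a_Het libraries 1, 2 and 3, 14.9, 13.3 and 16.2 FPKM in Ctrl and 13.5, 7.79 and 12.0 FPKM in WT. Arid1a_Het thus lay below Ctrl in every library, as for 22.2% of all tested genes, and overlapped WT. The difference from Ctrl was called under 0 of 22 alternatives (adjusted p = 0.0575 to 0.9505 by limma), so this check is weak. FPKM counts fragments relative to transcript length and library size. Arid1a_Het 3 stood apart in several results below: its neutrophil markers summed to 108 FPKM, against 7.38 and 11.0 FPKM in the other 2 Arid1a_Het libraries. Its record was also registered apart from those of the other 8 libraries, and whether it was prepared or sequenced at another time is not given in the sources used here. The Arid1a_Het values of Cxcl1, Cxcl2, Cxcl3, Cxcl5, Ppbp, Cxcr2, Il1b and the neutrophil markers, among other genes, turn on this library. Cxcl14, Tnf, Cd14, Csf1r and Krt5 were also highest there within the group. Cd14, for one, had 159.5 FPKM there, against 32.2 and 16.8 FPKM in Arid1a_Het 1 and 2. Arid1a_Het 3 and Ctrl 1 held the highest pancreas marker sums, 1463 and 3745 FPKM, where the other 7 libraries held 80.1 to 328 FPKM. Arid1a_Het 3 also held the highest sum of squamous forestomach markers, 1021 FPKM, against 394 and 236.7 FPKM in Arid1a_Het 1 and 2. Within this list Krt5, Krt14, Krt4 and Krt6a were highest in Arid1a_Het 3 and Sprr1a in Ctrl 3. Krt13, Krtdap and Sprr3 were highest in WT 1, at 125.7, 101.5 and 54.05 FPKM. WT 1 summed to 463 FPKM, against 97.4 and 46.1 FPKM in WT 2 and 3. The summed corpus markers were high throughout, at 31400 to 118100 FPKM in Arid1a_Het, 29600 to 41250 FPKM in Ctrl and 52240 to 128500 FPKM in WT, with Pgc, the precursor of pepsin C, and Gkn1, a secreted protein of surface mucous cells, highest by mean level. Single markers were not all high: Tff1 had only 4 to 27 reads in a library. Atp4a ran from 90.5 FPKM in Ctrl 1 to 7584 FPKM in WT 2. In these mixed glands, fewer cells of a type cannot be told apart from less RNA per cell.

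Ctrl glands held more of 5 CXC chemokines than WT glands: Cxcl5, Cxcl2, Cxcl1, Cxcl16 and Cxcl17. Genes with at least 1 FPKM in at least 3 libraries were tested, and this left 6 of the 10 members. Cxcl1, Cxcl2, Cxcl5 and Cxcl14 passed that minimum only through the NICD-bearing groups, since no WT library reached it. Of the 6 tested, 5 rose and 0 fell in Ctrl against WT at an adjusted p under 0.05 (limma, Benjamini-Hochberg over 11209 genes), where 7.01% of all tested genes rose and 3.04% fell. The median log2 change was 1.65 for the 6 and 0.24 for all tested genes. Since 0.24 is itself a shift, changes are also given relative to it for the smallest call, Cxcl17. Median-ratio scaling removes the shift (median 0.01) and splits the calls over all genes as 608 higher and 587 lower, against 786 and 341. With the replicate number as a block these counts were 1804 and 669, and the same 5 members were called.

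**Figure D1:**
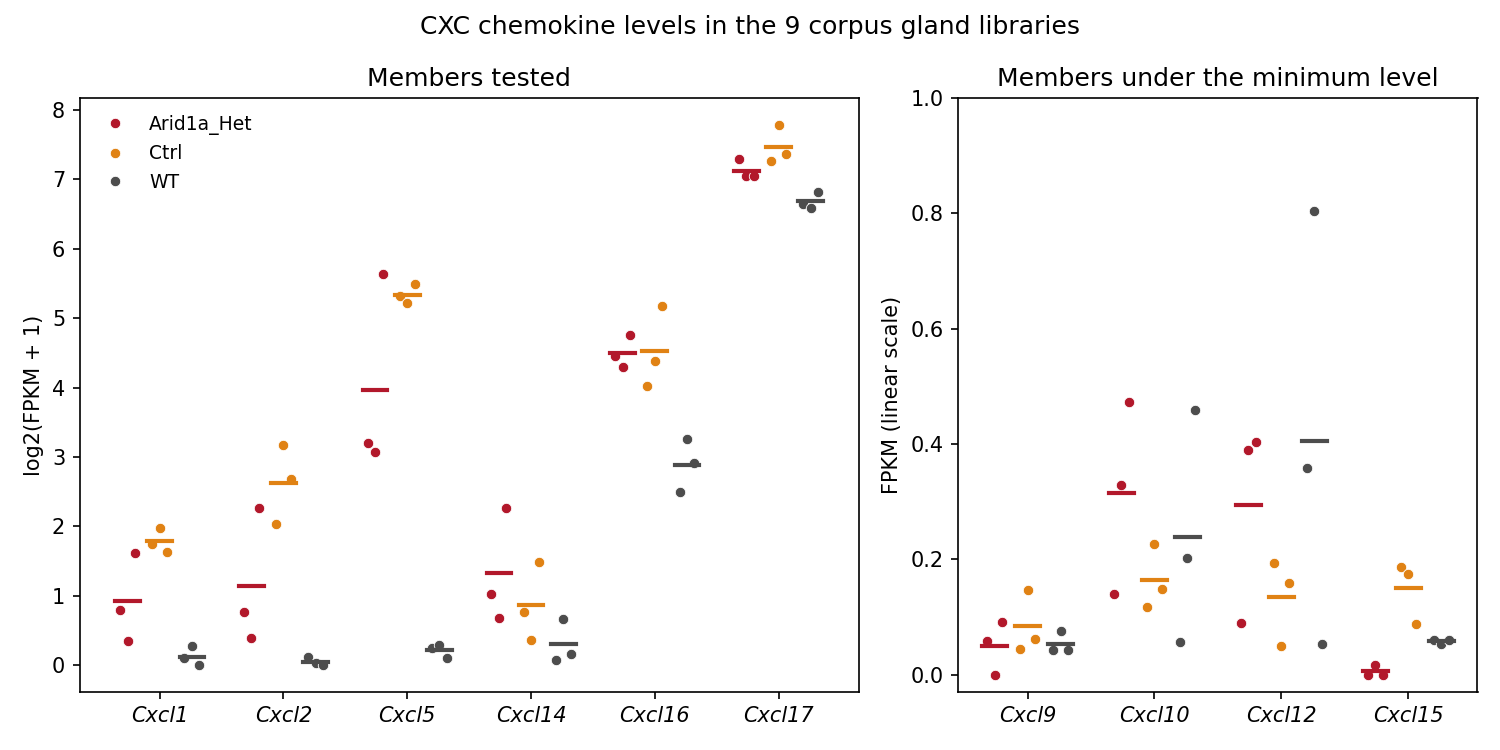
Levels of the 10 CXC chemokines in each library (points) with group means (bars), as log2(FPKM + 1) for the 6 tested members and as linear FPKM for the 4 members under the minimum; Arid1a_Het, Ctrl and WT run from left to right within each gene. Cxcl1, Cxcl2 and Cxcl5 lie near 0 in all 3 WT libraries, and Arid1a_Het 3 lies apart from Arid1a_Het 1 and 2 for these genes.

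Cxcl5, an ELR ligand of Cxcr2 known in mice as LIX, showed the largest change of the tested members. It had 8.17, 7.44 and 48.7 FPKM in Arid1a_Het 1, 2 and 3, 38.9, 36.1 and 43.9 FPKM in Ctrl 1, 2 and 3, and 0.185, 0.224 and 0.0693 FPKM in WT 1, 2 and 3. The WT values rest on 8, 11 and 3 reads, the Ctrl values on 1644, 1986 and 2211. All 6 NICD-bearing libraries lay above all WT libraries, and Arid1a_Het 3 was the highest of the 9 while Arid1a_Het 1 and 2 lay below every Ctrl library. Mean levels were 39.6 ± 3.94 FPKM in Ctrl and 0.160 ± 0.0806 FPKM in WT (SD, n = 3 each), a ratio of 249. Changes are given as log2 of FPKM + 1, a scale that shrinks the change of genes at low levels. Cxcl5 was 5.13 higher in Ctrl on this scale (SE 0.56, adjusted p = 0.00188 by limma), and it was called under all 22 alternatives.

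Cxcl2, the mouse neutrophil attractant also called MIP-2, followed at lower levels. Its values were 0.692, 0.308 and 3.78 FPKM in Arid1a_Het 1, 2 and 3, 3.07, 8.0 and 5.40 FPKM in Ctrl, and 0.0833, 0.0184 and 0 FPKM in WT. WT held 4, 1 and 0 reads, and 0 reads allow up to 0.0624 FPKM in WT 3, counting error only. Ctrl and WT did not overlap, and Arid1a_Het 3 alone of its group reached the Ctrl range. Cxcl2 was 2.58 higher in Ctrl than in WT on the log2 scale (SE 0.45, adjusted p = 0.0121 by limma). The call was lost without Ctrl 3 (adjusted p = 0.0572, range over alternatives 0.000290 to 0.0572). In the annotation 5.84% of the 50-base windows of Cxcl2 also occur in Cxcl3, so their reads may be shared in part.

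Cxcl1, known in mice as KC, had 0.726, 0.264 and 2.07 FPKM in Arid1a_Het 1, 2 and 3, 2.35, 2.93 and 2.09 FPKM in Ctrl and 0.0689, 0.203 and 0 FPKM in WT, the WT values from 3, 10 and 0 reads. The 3 groups were ordered without overlap, with Ctrl highest and WT lowest, although Arid1a_Het 3 lay just below Ctrl 3. Cxcl1 rose by a log2 of 1.66 in Ctrl against WT (SE 0.29, adjusted p = 0.0122 by limma) and was called under all 21 alternatives that tested it.

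The other ligands of the chromosome 5 cluster differed among themselves. Cxcl3, which also binds Cxcr2, had 0.359, 0.424 and 2.62 FPKM in Arid1a_Het 1, 2 and 3, 0.958, 2.40 and 2.57 FPKM in Ctrl and 0, 0.0217 and 0 FPKM in WT. It was higher in Ctrl than in WT by a log2 of 1.51 (SE 0.38, adjusted p = 0.0375 by limma), a call lost without Ctrl 2, without Ctrl 3 and without each WT library in turn (up to 0.138 over alternatives). Ppbp, the precursor of a platelet chemokine, had 0.580, 2.74 and 29.6 FPKM in Arid1a_Het 1, 2 and 3, 1.06, 3.98 and 2.19 FPKM in Ctrl and 0.0398, 0.561 and 0.0398 FPKM in WT. Arid1a_Het 3 alone reached that level, and Ppbp was not called (log2 1.42 in Ctrl against WT, adjusted p = 0.273). Without Arid1a_Het 3 the log2 differences of Arid1a_Het from Ctrl were -1.05 for Cxcl3 (adjusted p = 0.219) and -0.39 for Ppbp (adjusted p = 0.643). Pf4, another platelet chemokine, differed by a log2 of 0.06 (adjusted p = 0.953) between Ctrl and WT, whose ranges overlapped. Cxcl15, a mouse ELR chemokine known from lung epithelium, had at most 11 reads in any library, with 0, 0.0166 and 0 FPKM in Arid1a_Het 1, 2 and 3, 0.187, 0.175 and 0.0870 FPKM in Ctrl and 0.0607, 0.0536 and 0.0607 FPKM in WT. It lies between Cxcl3 and Cxcl1, and was not tested. The 4 annotated RNAs Gm24322, Gm43085, Gm43086 and Gm22816 in the cluster have no row in the table used here.

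**Figure D2:**
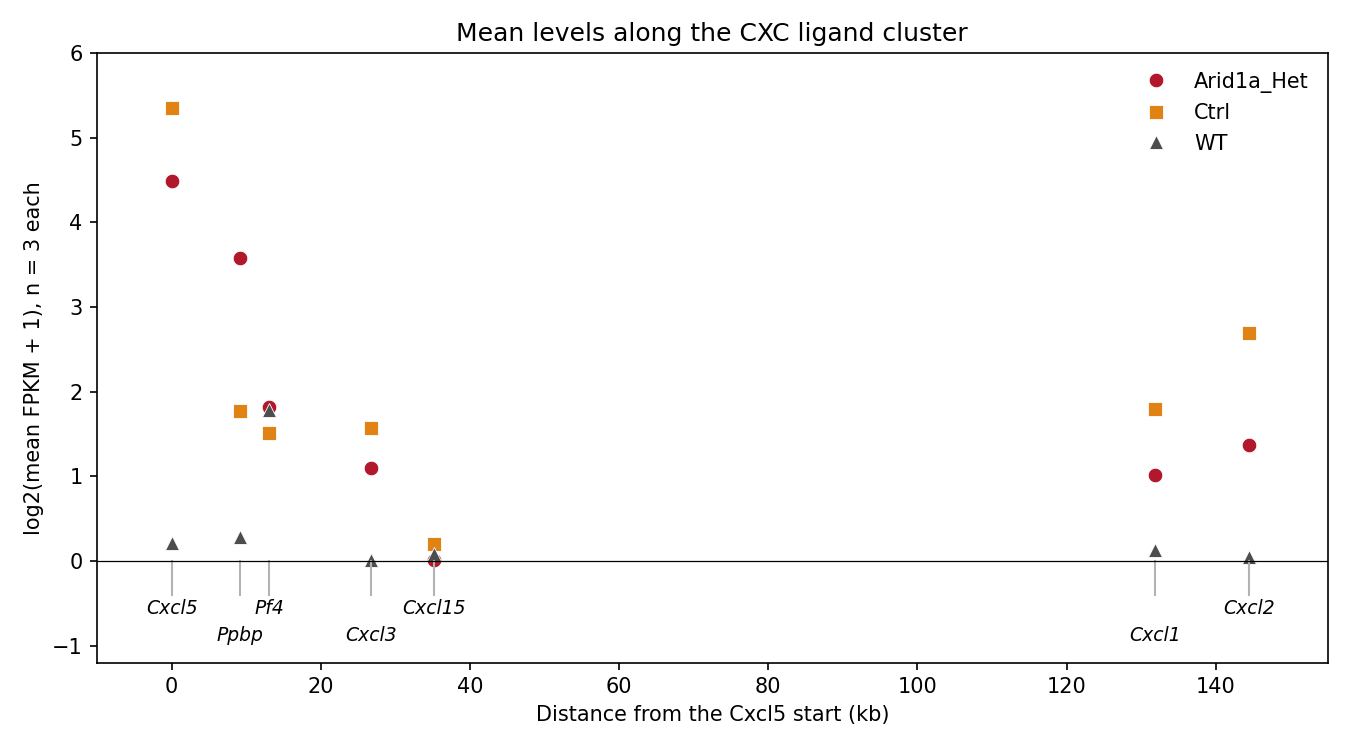
Mean level of each cluster ligand, as log2(mean FPKM + 1) of 3 libraries a group, against the distance of its start from the start of Cxcl5 in kb. Cxcl5, Cxcl3, Cxcl1 and Cxcl2 are highest in Ctrl, Ppbp is highest in Arid1a_Het through 1 library, and Pf4 and Cxcl15, which lie between Ppbp and Cxcl1, show smaller differences between group means.

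Cxcl16, a transmembrane chemokine that is shed from the cell surface, rose in both NICD-bearing groups. It had 21.0, 18.6 and 26.0 FPKM in Arid1a_Het 1, 2 and 3, 15.2, 19.9 and 35.2 FPKM in Ctrl and 4.65, 8.54 and 6.54 FPKM in WT. The WT libraries were the 3 lowest, and the other groups overlapped each other. Mean levels were 23.4 ± 10.5 FPKM in Ctrl and 6.58 ± 1.95 FPKM in WT (SD, n = 3 each), a ratio of 3.56, and the log2 change was 1.64 (SE 0.30, adjusted p = 0.0145 by limma), called under all 22 alternatives. Cxcl16 overlaps Zmynd15 on the opposite strand, which holds 16.9% of its 50-base windows, and whether counting used the strand is not given in the sources used here.

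Cxcl17 was by far the most abundant member, at 155.5, 131 and 131 FPKM in Arid1a_Het 1, 2 and 3, 153, 219.7 and 165 FPKM in Ctrl and 99.4, 95.1 and 112 FPKM in WT. Every NICD-bearing library lay above every WT library. The rise in Ctrl was small, with means of 179 ± 35.7 FPKM in Ctrl and 102 ± 9.01 FPKM in WT (SD, n = 3 each), a ratio of 1.75 and a log2 change of 0.79 (SE 0.17, adjusted p = 0.0233 by limma), or 0.55 after the all-gene median is taken off. The call was lost under median-ratio scaling (log2 0.52, adjusted p = 0.0820), in limma voom on whole reads (0.0657) and without Ctrl 2, Ctrl 3, WT 2 or WT 3 (0.0560 to 0.0729). Cxcl17 made up 60.6% to 83.0% of the summed FPKM of the 10 members in Arid1a_Het, 65.0% to 76.4% in Ctrl and 89.9% to 94.7% in WT. Cxcl5 made up 4.36% to 22.5% in Arid1a_Het, 12.6% to 18.2% in Ctrl and 0.0579% to 0.212% in WT. An antisense transcript, 4732471J01Rik, overlaps Cxcl17.

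Cxcl14, a chemokine of resting epithelia, did not pass the test between Ctrl and WT. It had 1.03, 0.601 and 3.79 FPKM in Arid1a_Het 1, 2 and 3, 0.702, 0.279 and 1.79 FPKM in Ctrl and 0.0472, 0.583 and 0.118 FPKM in WT. Each group held 1 library well apart from its other 2, Arid1a_Het 3, Ctrl 3 and WT 2, and Ctrl overlapped WT. The log2 difference between Ctrl and WT was 0.57 (95% interval -0.38 to 1.52, adjusted p = 0.348 by limma).

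The interferon-inducible and stromal members stayed under 1 FPKM in every library. Cxcl9 had 0 to 0.0912 FPKM in Arid1a_Het, 0.0439 to 0.146 FPKM in Ctrl and 0.0428 to 0.0756 FPKM in WT, at most 13 reads in a library. Cxcl10 had 0.140 to 0.474 FPKM in Arid1a_Het, 0.118 to 0.226 FPKM in Ctrl and 0.0574 to 0.459 FPKM in WT. Cxcl12 had 0.0897 to 0.404 FPKM in Arid1a_Het, 0.0498 to 0.194 FPKM in Ctrl and 0.0527 to 0.804 FPKM in WT. The 3 groups overlapped for each of these genes, and none was called in any comparison when no minimum level was set, nor was Cxcl15. Cxcl10 overlaps Art3 on the opposite strand.

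The order of the members by mean level differed between genotypes. In Arid1a_Het it ran Cxcl17, Cxcl16, Cxcl5, Cxcl14, Cxcl2, Cxcl1, Cxcl10, Cxcl12, Cxcl9 and Cxcl15, and only Cxcl17 over Cxcl16 and Cxcl5 over Cxcl14 were separated without overlap of the libraries. In Ctrl it ran Cxcl17, Cxcl5, Cxcl16, Cxcl2, Cxcl1 and Cxcl14, each separated from the next, and then Cxcl10, Cxcl15, Cxcl12 and Cxcl9, each overlapping the next. In WT, Cxcl17 and Cxcl16 were separated from the rest, and the 8 others overlapped their neighbours between 0.0339 FPKM (Cxcl2) and 0.405 FPKM (Cxcl12). Cxcl5 thus stood second in Ctrl and sixth in WT.

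In Arid1a_Het against WT, the second comparison with wild type, 2 of the 6 tested members rose, Cxcl5 and Cxcl16, and 0 fell, where 2.06% of all tested genes rose and 0.687% fell. Cxcl5 was 3.76 higher on the log2 scale (SE 0.56, adjusted p = 0.0113 by limma) and 2.93 higher without Arid1a_Het 3 (adjusted p = 0.000214). The call was lost without WT 3 (0.0520), in a fit of only the 2 groups (0.0575) and in limma voom (0.0963). Cxcl16 was 1.61 higher (SE 0.30, adjusted p = 0.0274 by limma), and this call was lost without Arid1a_Het 1, Arid1a_Het 3, Ctrl 2, WT 1 or WT 3 (0.0518 to 0.0981) and under median-ratio scaling (0.0548), among 10 of 22 alternatives. The other 4 did not pass: the log2 differences were 0.79 for Cxcl1 (adjusted p = 0.202), 1.09 for Cxcl2 (0.257), 1.02 for Cxcl14 (0.251) and 0.44 for Cxcl17 (0.217). Without Arid1a_Het 3 the differences of Cxcl1 and Cxcl2 from WT were 0.44 and 0.53. For each of the 6 tested members every Arid1a_Het library lay above every WT library, which was so for 10.6% of all tested genes, while for the 5 called members it was so in Ctrl against WT, as for 33.5% of all tested genes. Both comparisons with WT use the same WT libraries.

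**Figure D3:**
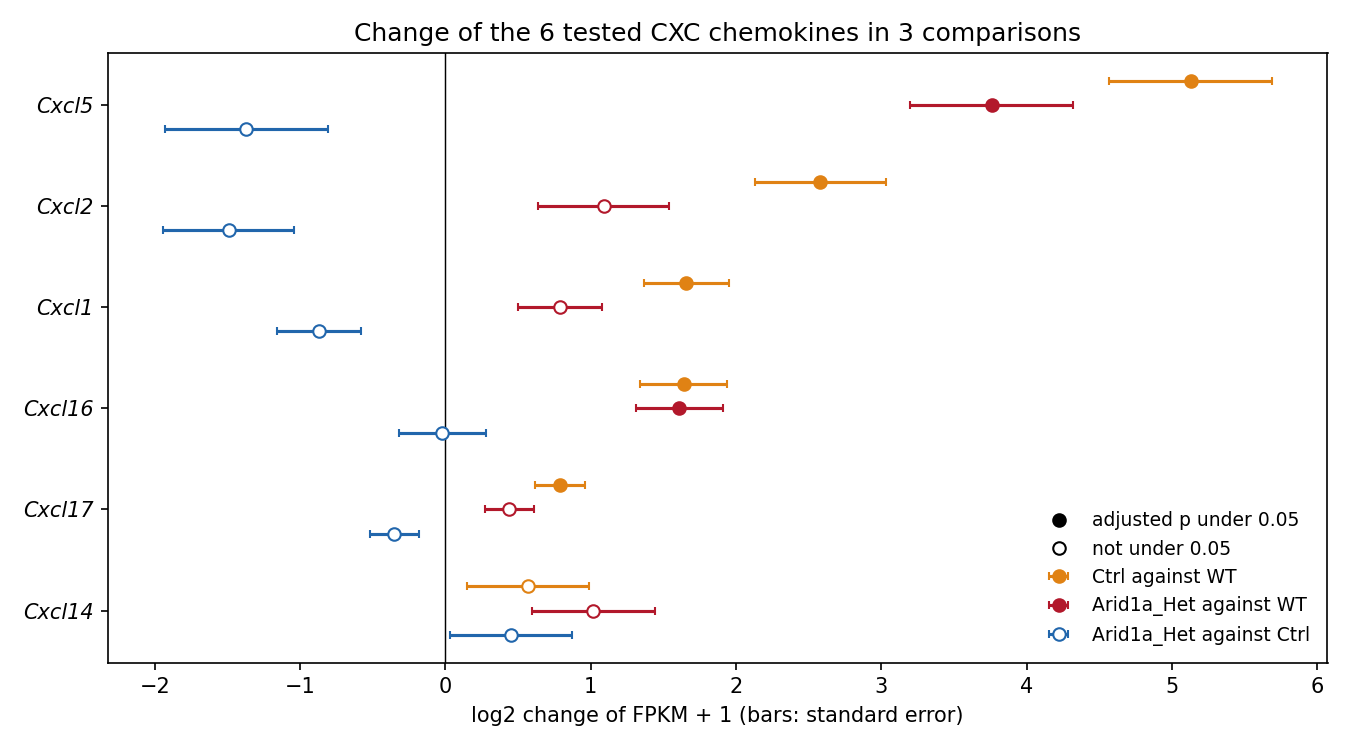
Log2 changes of FPKM + 1 (points, with standard errors as bars) for the 6 tested members in Ctrl against WT, Arid1a_Het against WT and Arid1a_Het against Ctrl; filled points have an adjusted p under 0.05. Filled points are the 5 called in Ctrl against WT and Cxcl5 and Cxcl16 in Arid1a_Het against WT, and no point of Arid1a_Het against Ctrl is filled.

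Arid1a_Het against Ctrl asks what differs with the floxed Arid1a allele. The 3 tested ELR ligands were lower on average in Arid1a_Het, but 0 of the 6 tested members passed the limma test in either direction, where 0.00892% of all tested genes fell and 0.0% rose. At an unadjusted p under 0.05 limma had 3 members (Cxcl1, Cxcl2 and Cxcl5) and 1305 of all genes, and limma voom had 1 member unadjusted and 0 adjusted. Mean levels in Arid1a_Het and Ctrl were 1.02 ± 0.940 and 2.46 ± 0.428 FPKM for Cxcl1, and the log2 difference was -0.87 (95% interval -1.53 to -0.21, adjusted p = 0.397). Cxcl1 was the only tested member whose groups did not overlap here, lower in Arid1a_Het as were 22.2% of all tested genes. For Cxcl2 the means were 1.59 ± 1.90 FPKM in Arid1a_Het and 5.49 ± 2.47 FPKM in Ctrl, with a log2 difference of -1.49 (-2.51 to -0.47, adjusted p = 0.395). For Cxcl5 they were 21.4 ± 23.6 FPKM in Arid1a_Het and 39.6 ± 3.94 FPKM in Ctrl, with a log2 difference of -1.37 (-2.64 to -0.10, adjusted p = 0.410). These 3 values rest on which Arid1a_Het libraries are used. Without Arid1a_Het 3, Cxcl5 passed (log2 -2.20, adjusted p = 0.00336 by limma), while Cxcl1 (-1.22, adjusted p = 0.0886) and Cxcl2 (-2.05, adjusted p = 0.0596) did not. Without both Arid1a_Het 3 and Ctrl 1, the libraries with the highest pancreas markers, Cxcl2 (-2.35, adjusted p = 0.0228 by limma) and Cxcl5 (-2.22, adjusted p = 0.0187) passed. Of all 11209 tested genes, 20 fell without Arid1a_Het 3 and 21 without both libraries. Arid1a_Het 3 held the highest value of its group for these genes, and Ctrl 1 the lowest Ctrl value of Cxcl2. Leaving them out was bound to widen these differences, so the calls are a description.

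Cxcl16 and Cxcl17 were close between Arid1a_Het and Ctrl. Their log2 differences were -0.02 (95% interval -0.71 to 0.66) and -0.35 (-0.73 to 0.03), with adjusted p-values of 0.977 and 0.446 by limma. With the all-gene median of -0.16 taken off they were 0.14 and -0.18. The sign for Cxcl16 flipped under median-ratio scaling, to 0.18. Cxcl14 differed by 0.45 (-0.50 to 1.41, adjusted p = 0.649) and by -0.02 without Arid1a_Het 3. The intervals of these 3 genes take in changes of either sign.

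Of 8 listed CXC receptors 3 were tested, and all 3 rose in Ctrl against WT, where 7.01% of all tested genes did. The count was 1 without Ctrl 2, Ctrl 3 or WT 3 and 2 in limma voom. Cxcr2 and Ackr3 reached the minimum for testing only in NICD-bearing libraries, a filter that favours a rise. Cxcr4, the receptor of Cxcl12, had 10.7, 12.5 and 14.6 FPKM in Arid1a_Het 1, 2 and 3, 12.4, 14.4 and 15.6 FPKM in Ctrl and 2.14, 1.24 and 1.33 FPKM in WT. The NICD-bearing groups overlapped each other and lay above WT, with log2 changes of 2.57 in Ctrl (adjusted p = 0.000208) and 2.41 in Arid1a_Het (adjusted p = 0.000526) against WT, called under all 22 alternatives. Ackr3, which takes up Cxcl12 without G protein signalling, had 7.75, 2.97 and 9.65 FPKM in Arid1a_Het, 3.56, 4.57 and 5.46 FPKM in Ctrl and 0.656, 0.930 and 0.450 FPKM in WT. It rose by a log2 of 1.71 in Ctrl (adjusted p = 0.0177) and 2.11 in Arid1a_Het (adjusted p = 0.0140) against WT by limma, calls lost in Ctrl without Ctrl 2, Ctrl 3 or WT 3 and in Arid1a_Het without Arid1a_Het 1 or WT 3. In FPKM, both receptors of Cxcl12 lay above their ligand in each of the 9 libraries.

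Cxcr2, the receptor of the ELR ligands on neutrophils, had 0.492, 0.255 and 5.58 FPKM in Arid1a_Het 1, 2 and 3, 2.13, 4.70 and 5.66 FPKM in Ctrl and 0.0283, 0.0499 and 0.0424 FPKM in WT. As with Cxcl5, Arid1a_Het 3 reached the Ctrl range and Arid1a_Het 1 and 2 did not. Cxcr2 rose by a log2 of 2.24 in Ctrl against WT (SE 0.56, adjusted p = 0.0374 by limma), lost under 9 of 21 alternatives, among them each Ctrl and each WT library left out in turn (up to 0.139). In Arid1a_Het against WT it differed by 1.15 (adjusted p = 0.340) and by 0.40 without Arid1a_Het 3. Cxcr6, the receptor of Cxcl16, and Cxcr1, Cxcr3, Cxcr5 and Ackr1 were not tested. The enzymes Adam10, which sheds Cxcl16, Adam17 and Dpp4, which trims Cxcl10 and Cxcl12, gave 0 of 3 calls in each comparison by limma, with 0 at an unadjusted p under 0.05 and 0 by limma voom.

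Of 11 neutrophil markers measured 5 were tested, and 3 rose in Ctrl against WT, where 7.01% of all tested genes did: Csf3r, the receptor of granulocyte colony-stimulating factor (log2 2.38, adjusted p = 0.0154), and the calprotectin subunits S100a8 (3.65, adjusted p = 0.0240) and S100a9 (4.40, adjusted p = 0.0152). Retnlg, a resistin-like secreted protein (log2 1.59, adjusted p = 0.103), and Itgam, the integrin CD11b that macrophages also carry (0.49, adjusted p = 0.525), did not pass, and WT 2 held more Itgam, at 3.15 FPKM, than any Ctrl library, at 1.40 to 3.09 FPKM. S100a9 had 3.34, 5.35 and 58.8 FPKM in Arid1a_Het 1, 2 and 3, 24.2, 57.0 and 36.2 FPKM in Ctrl and 0.825, 1.24 and 0.412 FPKM in WT. The summed markers ranged from 7.38 to 108 FPKM in Arid1a_Het, 42.4 to 97.8 FPKM in Ctrl and 1.69 to 6.55 FPKM in WT, so Arid1a_Het 3 was the highest library in this sum as in Cxcl5. S100a9 was the largest term of the sum in all 6 NICD-bearing libraries. The 3 calls fell to 0 without Ctrl 2, without Ctrl 3 and without WT 3, and to 1 in limma voom. Csf3r, S100a8 and Retnlg reached the minimum for testing only in NICD-bearing libraries, a filter that favours a rise. In Arid1a_Het against Ctrl 0 of 5 were called by limma (1 at an unadjusted p under 0.05). Without Arid1a_Het 3, 3 fell, where 20 of all 11209 tested genes did. This library held the highest marker sum, so leaving it out was bound to widen the difference. Defining markers were near 0: Ly6g, a surface protein of mouse neutrophils, had at most 2 reads in a library, and Mpo and Camp, made by immature neutrophils, at most 3 reads and 1 read, while 6 of the 11 markers stayed under 1 FPKM throughout. The part of neutrophils in the ELR ligand levels was not tested.

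**Figure D4:**
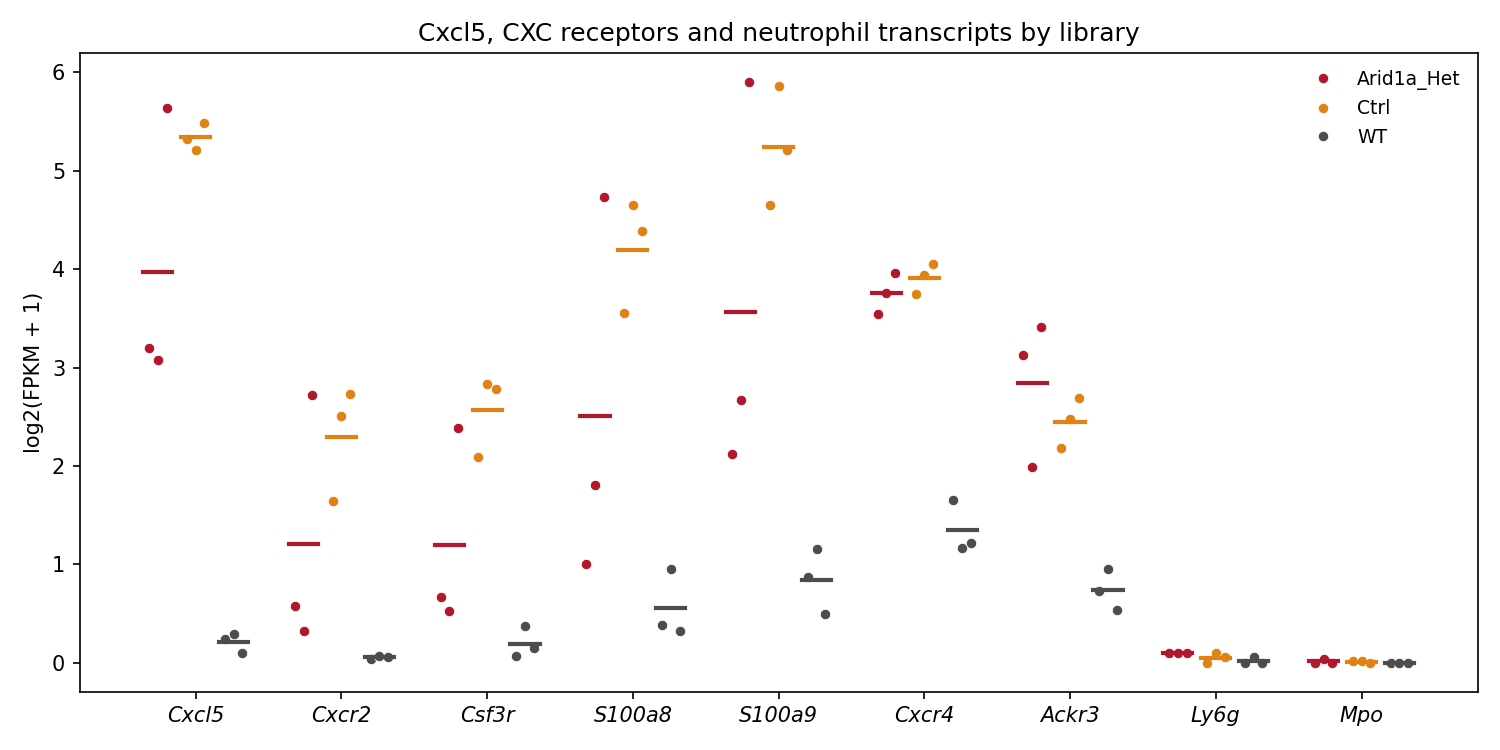
Levels of Cxcl5, CXC receptors and neutrophil transcripts as log2(FPKM + 1) in each library (points), with group means (bars), for Arid1a_Het, Ctrl and WT from left to right. Arid1a_Het 3 is the high point of its group for Cxcl5, Cxcr2, Csf3r, S100a8 and S100a9, whereas Cxcr4 shows no such gap and Ly6g and Mpo are near 0.

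Markers of other cell types are read against the same 7.01% of all tested genes that rose and 3.04% that fell in Ctrl against WT. Of 9 macrophage and dendritic markers 8 were tested, and Itgax and Cd14 rose in Ctrl against WT (log2 1.33 and 3.31, adjusted p = 0.0334 and 0.0182 by limma), with sums of 44.2 to 243 FPKM in Arid1a_Het, 78.7 to 135 FPKM in Ctrl and 13.2 to 51.7 FPKM in WT. These calls fell to 0 without Ctrl 2, Ctrl 3 or WT 2 and to 1 in limma voom. Itgax reached the minimum for testing only in NICD-bearing libraries, a filter that favours a rise. The other 6 tested macrophage and dendritic markers did not pass. Of these, Adgre1, C1qa, C1qb, C1qc and Csf1r overlapped between Ctrl and WT, and Cd68 did not. Cd14 was the largest term of the sum in every NICD-bearing library. The 243 FPKM was the sum of Arid1a_Het 3, against 44.2 and 49.1 FPKM in Arid1a_Het 1 and 2. None of the 12 T and NK cell markers, whose cells carry Cxcr3 and Cxcr6, reached the minimum for testing, and their sums were 1.78 to 4.85 FPKM in Arid1a_Het, 2.98 to 15.1 FPKM in Ctrl and 0.912 to 2.35 FPKM in WT. Fibroblast markers, led by Dcn, gave 0 calls among 5 tested in Ctrl against WT (limma, 0 at an unadjusted p under 0.05 and 0 by limma voom), with sums of 3.43 to 51.4 FPKM in Arid1a_Het, 7.70 to 18.4 FPKM in Ctrl and 8.19 to 90.0 FPKM in WT. Of 5 gland epithelial markers, led by Krt19, 2 rose in Ctrl against WT, Epcam and Krt18, and of 9 corpus cell markers 2 fell, Atp4b and Muc5ac. With the replicate number as a block 4 corpus cell markers fell, where 669 of all 11209 tested genes did. Both counts of 2 were 0 without each Ctrl library in turn, and in limma voom they were 2 and 0. Squamous markers of the forestomach, with Sprr1a highest by mean level, summed to 236.7 to 1021 FPKM in Arid1a_Het, 278 to 729.6 FPKM in Ctrl and 46.1 to 463 FPKM in WT. The highest sum, 1021 FPKM, was that of Arid1a_Het 3. In Ctrl against WT 1 of 7 tested squamous markers rose by limma and 0 in limma voom. The part of squamous cells in the CXC levels was not tested.

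Of 16 listed cytokines, receptors and regulators of the IL-17 and NF-kB pathways 11 were tested, and 5 rose in Ctrl against WT, where 7.01% of all tested genes did: the cytokines Il1a, Il1b and Tnf and the regulators Nfkbiz and Zc3h12a. The other 6 did not pass, among them the IL-17 receptor subunits Il17re (log2 -0.38) and Il17rc (0.09). The median log2 change of the 11 was 0.89 and that of all tested genes 0.24. Il1a, Il1b and Tnf reached the minimum for testing only in NICD-bearing libraries, a filter that favours a rise. Il1b, a cytokine of activated myeloid cells, had 3.37, 2.69 and 30.6 FPKM in Arid1a_Het 1, 2 and 3, 17.6, 41.3 and 28.5 FPKM in Ctrl and 0.294, 0.458 and 0.0451 FPKM in WT. Here too Arid1a_Het 3 alone of its group lay in the Ctrl range, and Il1b was 4.51 higher in Ctrl than in WT on the log2 scale (adjusted p = 0.00747 by limma). Il1a, the cytokine released by damaged epithelium, had 17.1, 4.40 and 34.7 FPKM in Arid1a_Het, 13.4, 19.3 and 29.5 FPKM in Ctrl and 0.284, 0.135 and 0.0218 FPKM in WT. It was the only member of the list called in Arid1a_Het against WT (log2 3.73, adjusted p = 0.0126) and rose by 4.18 in Ctrl (adjusted p = 0.00465). Tnf rose by a log2 of 2.10 in Ctrl (adjusted p = 0.0109). Nfkbiz, an IkB family protein that works with NF-kB at IL-17 target genes, rose by 1.50 (adjusted p = 0.0194) and Zc3h12a, an RNase that degrades inflammatory mRNAs, by 1.77 (adjusted p = 0.00336). Nfkbia, an inhibitor of NF-kB with the highest mean level of the list, did not pass (0.44, adjusted p = 0.379). With the replicate number as a block, 7 of the list were called in Ctrl against WT and 3 in Arid1a_Het against WT, in place of 5 and 1. Of all 11209 tested genes, 1804 and 445 rose in these comparisons under the block. In limma voom 2 of 11 were called in Ctrl against WT and 0 in Arid1a_Het against WT. Without Ctrl 3 the count in Ctrl against WT was 3, and without Arid1a_Het 1 or WT 3 that in Arid1a_Het against WT was 0. In Arid1a_Het against Ctrl 0 of 11 were called by limma, 4 at an unadjusted p under 0.05. Without Arid1a_Het 3, Il1b fell (log2 -2.83, adjusted p = 0.0248 by limma), where with all libraries the difference was -1.84 (adjusted p = 0.404). Arid1a_Het 3 held the most Il1b of its group, so leaving it out was bound to widen the difference.

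A list of interferon-gamma pathway genes gave 2 calls among 16 tested in Ctrl against WT, where 7.01% of all tested genes rose. They were Irf1 (log2 1.31, adjusted p = 0.0129 by limma) and Irgm1 (1.38, adjusted p = 0.0334). The 16 include the receptor genes Ifngr1 and Ifngr2 and the kinases Jak1 and Jak2, none of them called. Counts and medians of this list are therefore not those of response genes alone. Calls numbered 7 with the replicate number as a block, where 1804 of all 11209 tested genes rose, and 1 in limma voom. At an unadjusted p under 0.05 limma had 9 of the 16, and 3602 of all tested genes. The median log2 change was 0.67 for the 16 and 0.24 for all tested genes. In Arid1a_Het against WT 0 of 16 were called, where 2.06% of all tested genes rose. There limma had 12 at an unadjusted p under 0.05, and 1927 of all tested genes, with medians of 0.85 and 0.02. The count of 2 was 0 without Ctrl 2 or Ctrl 3, 1 without WT 1 or WT 2 and 4 without Arid1a_Het 1. Ifng itself had at most 2 reads in a library. Of the other chemokines, 4 of 18 measured were tested, and Cx3cl1, a membrane-bound chemokine of epithelium, rose in both groups against WT, by a log2 of 1.03 in Arid1a_Het (adjusted p = 0.0161) and 0.82 in Ctrl (adjusted p = 0.0208). Its levels were 28.5, 19.1 and 22.3 FPKM in Arid1a_Het 1, 2 and 3, 19.1, 19.0 and 21.1 FPKM in Ctrl and 11.2, 9.31 and 11.9 FPKM in WT, and it lost the call in Ctrl without each Ctrl library, WT 2 or WT 3 and in Arid1a_Het without Arid1a_Het 1, WT 2 or WT 3.

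**Figure D5:**
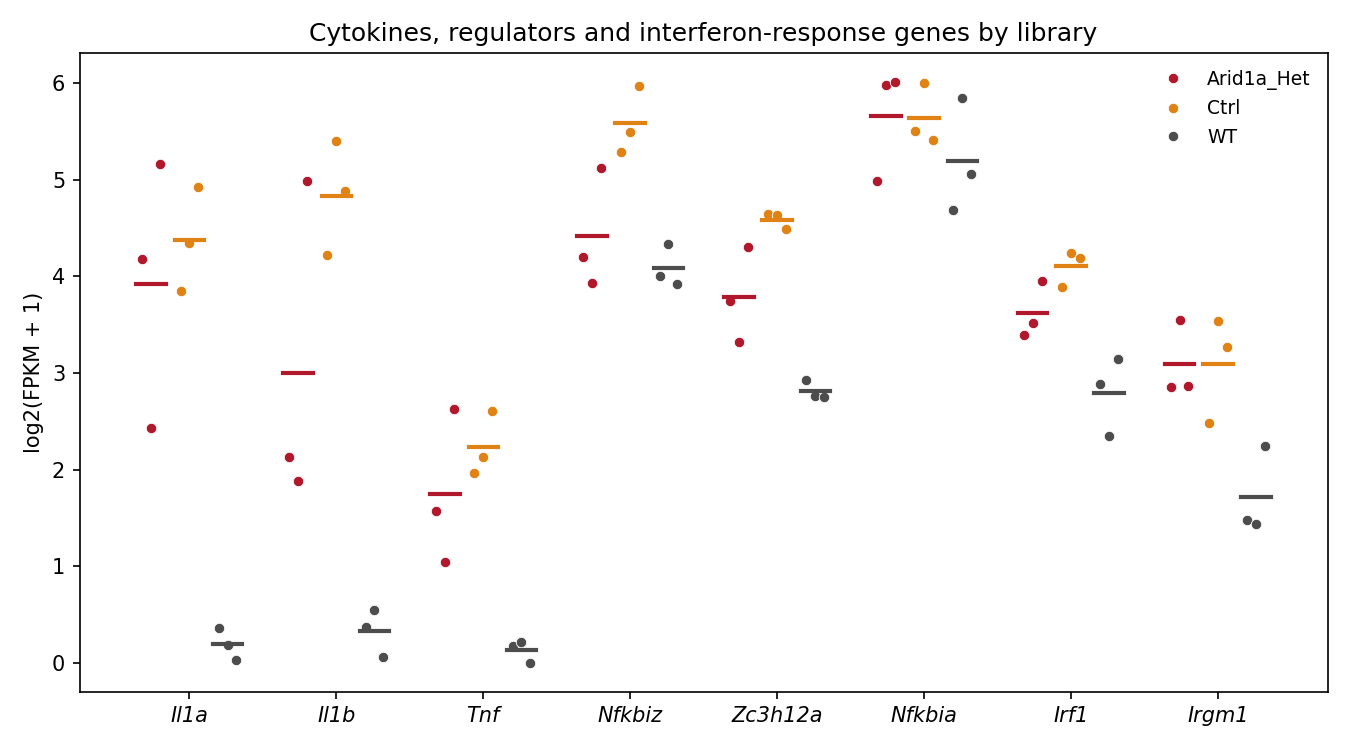
Levels of 6 listed genes of the IL-17 and NF-kB pathways and of the interferon-response genes Irf1 and Irgm1 as log2(FPKM + 1) in each library (points), with group means (bars), for Arid1a_Het, Ctrl and WT from left to right. Il1a, Il1b and Tnf lie near 0 in WT, and Nfkbia overlaps between all groups.

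The genes whose log2(FPKM + 1) followed each member most closely over the 9 libraries differed between members. Pearson's r takes in the difference between genotypes and is given as a description. For Cxcl5 they were Elk3 (0.995), Sftpd (0.992) and Hk2 (0.990), for Cxcl2 Csf3r (0.990), Nlrp3 (0.987) and Cebpb (0.986), and for Cxcl1 Irak3 (0.987), Zc3h12a (0.981) and Mab21l3 (0.980). For Cxcl16 they were Sema7a (0.987), Btbd11 (0.976) and Eva1c (0.976), for Cxcl17 Gemin8 (0.973), Cgnl1 (0.950) and Ing2 (0.949), and for Cxcl14 Acvr1 (0.952), Efemp1 (0.943) and Slc39a4 (0.925). Between members, r was 0.975 for Cxcl1 with Cxcl2, 0.940 for Cxcl1 with Cxcl5 and 0.203 for Cxcl14 with Cxcl17.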

How the data were processed

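The authors deposited 1 table of FPKM values for 18423 genes in 9 libraries, 3 a genotype. Per the labels' protocols the RNA was poly(A) RNA in a stranded kit. Per the submitters' processing notes STAR 2.4.2a aligned reads, with GRCm38 named as build; the tool that counted reads and made FPKM is not given in the sources used here. Whole reads per gene were worked out from the steps of the values (all 18423 genes whole within 0.01) and used for depth, floors and 1 alternative. Values were tested as log2(FPKM + 1) in limma 3.58.1 (R 4.3.3; lmFit, eBayes with trend), with all 9 libraries in 1 fit, genes with at least 1 FPKM in at least 3 libraries (11209), and Benjamini-Hochberg adjustment; the fit was checked on simulated data.

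The members, the 17 gene lists and the rule for naming genes were chosen with earlier results of these data known. Named were the members, called genes and the highest genes of each list; not every one of the highest genes is printed. Same-numbered Ctrl and WT libraries deviated from their group means together (correlations 0.207, 0.336 and 0.138), so the numbers may pair these 2 groups, although the labels do not state it. The main fit did not use the numbers, and the block is an alternative. Positions come from GENCODE M21 and promoters from RefSeq. Floors from reads cover counting error only. The intervals of log2 differences come from the limma standard errors, and so reflect the spread between libraries. The 22 alternatives changed the pseudocount, filter, scaling, fit, weights, block or libraries. Python 3.11.15 was used for tables and plots.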

Additional observations from a re-analysis of the deposited data

How the results depend on the processing

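Of the tested members, 5 were called in Ctrl against WT, 3 where a minimum of 5 FPKM left only 3 tested, and 3 to 5 with a library left out, lowest without Ctrl 3. Array weights also called Cxcl14, where 4006 of all 11209 tested genes rose. Median-ratio scaling and limma voom each lost Cxcl17. In Arid1a_Het against Ctrl 0 were called, and 0 to 1 with a library left out. Without the libraries of highest pancreas markers 2 were called, where 21 of all 11209 tested genes fell. In Arid1a_Het against WT 2 were called, and 4 with array weights, where 787 of all 11209 tested genes rose against 231 in the main fit. The count was 1 each without a filter, with median-ratio scaling, with quantile normalization, in a fit of only the 2 groups and without the pancreas libraries. It was 0 in limma voom and 0 to 3 with a library left out, lowest without WT 3. With the replicate number as a block the counts were 5, 0 and 2, and the block changed no call of a member. Deviations of same-numbered Arid1a_Het libraries correlated at -0.151, 0.467 and -0.02 with Ctrl and at 0.252, 0.563 and -0.279 with WT. Whether the numbers pair Arid1a_Het libraries with others cannot be told from these values. Over all genes, calls in Ctrl against WT were 786 higher and 341 lower, 1804 and 669 under the block, 4006 and 1704 with array weights, 568 and 703 after quantile normalization, and 217 and 43 without Ctrl 3.

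Signs turned only for Cxcl16 and Cxcl14 in Arid1a_Het against Ctrl, neither called. Cxcl16, at -0.02, was 0.18 with median-ratio scaling, 0.09 with quantile normalization, 0.42 with array weights, 0.16 in limma voom and -0.28 to 0.30 with a library left out. Cxcl14, at 0.45, was -0.06 without the pancreas libraries and -0.02 to 0.78 with a library left out. The cause was not tested. Low reads in WT limit Cxcl1, Cxcl2 and Cxcl5: a pseudocount of 0.01 in place of 1 gives Cxcl2 a log2 of 7.42 in place of 2.58.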

Other observations

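Gapdh, which has many processed pseudogenes, had 10 to 95 reads in a library, with means of 0.306 FPKM in Arid1a_Het, 0.523 FPKM in Ctrl and 0.187 FPKM in WT.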
